A study of Mus musculus with 9 samples.

Results

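The INK4 and ARF genes, the CIP/KIP genes and the RB family hold the proteins that brake the passage from G1 into S phase, and their transcripts were measured in BCR/ABLp185+ mouse bone marrow cell lines. The 10 genes were chosen by name out of 50686 genes in the deposited tables. They are the INK4 and ARF genes Cdkn2a, Cdkn2b, Cdkn2c and Cdkn2d, the CIP/KIP genes Cdkn1a, Cdkn1b and Cdkn1c, and the RB family genes Rb1, Rbl1 and Rbl2. The lines came from bone marrow of wt, Stat5a-/- or Stat5b-/- mice of C57BL/6N background, and all of them carry the BCR/ABLp185 oncogene, a constitutively active tyrosine kinase delivered by retrovirus. There was 1 line of each genotype with 3 technical replicates, so 9 libraries were analysed, and a p-value compares 3 cell lines against the technical spread rather than independent lines of a genotype.

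Cells commit to division when D-type cyclins with CDK4 or CDK6, and then E-type cyclins with CDK2, phosphorylate the RB family proteins and release E2F transcription factors. INK4 proteins bind CDK4 and CDK6 and keep them from D-type cyclins, whereas the CIP/KIP proteins p21, p27 and p57 bind cyclin-CDK complexes, CDK2 complexes above all. Cdkn2a is exceptional among them because its transcripts from different first exons encode 2 unrelated proteins, p16INK4a, a CDK4 and CDK6 inhibitor, and p19ARF, which restrains MDM2 and so stabilizes p53. In BCR/ABL-driven B-lymphoid leukemia the Cdkn2a locus is a well-known barrier that is often lost.

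Between 11948136 and 19016396 reads were counted per library. Levels are given in normalized CPM (counts divided by library sizes that edgeR's TMM method had rescaled), and levels of different genes are compared as normalized RPKM, the same value per kilobase of exon. Genes were tested with edgeR's quasi-likelihood test on all 9 libraries and called at an adjusted p under 0.05, after Benjamini-Hochberg adjustment over 13852 genes. Stat5a fell in the Stat5a-/- line (log2 fold change against wt -1.80, adjusted p = 4.69e-07) and Stat5b fell in the Stat5b-/- line (-0.73, adjusted p = 1.69e-04), both with reads left. All 12 B-lineage marker genes had reads in each line, and their summed level lay between 5167 and 5380 normalized CPM in wt, 6747 and 7429 in Stat5a-/- and 6099 and 6925 in Stat5b-/-. Of these markers 6 rose and 4 fell in Stat5b-/- against wt, where 24.2% and 22% of all genes tested did. In Stat5a-/- against wt 7 rose and 3 fell, beside 19.8% and 16.3%. The recombinase genes Rag1 and Rag2 changed most. Rag1 had 1002, 1328 and 1098 reads in wt but 2, 3 and 1 in Stat5a-/- and 7, 10 and 11 in Stat5b-/-. Rag2 had 477, 744 and 512 reads in wt but 2, 0 and 1 in Stat5a-/- and 7, 16 and 6 in Stat5b-/-. The libraries also held reads of 16 T-cell marker genes, which summed to between 750 and 1039 normalized CPM in wt, 1343 and 1544 in Stat5a-/- and 1722 and 2477 in Stat5b-/-, with no gene at 0 reads in any line. Of these markers 15 rose and 0 fell in Stat5b-/- against wt, 8 rose and 0 fell in Stat5a-/- against wt, and 14 rose and 1 fell in Stat5b-/- against Stat5a-/-. Over all genes tested the shares were 24.2% and 22%, 19.8% and 16.3%, and 16.4% and 17.5%. The markers did not move alike. In Stat5b-/- against wt their median log2 fold change was 1.15, with Lck at 2.56 and Zap70 at 2.34. In Stat5a-/- against wt the median was 0.43, with Cd2 at 2.33. Cd2 was the marker that fell in Stat5b-/- against Stat5a-/- (-1.52). The sum of 10 myeloid markers stayed between 4.16 and 10.8 normalized CPM in every library. The 2 that passed the filter, Csf1r and Lyz2, rose in Stat5b-/- against wt (adjusted p = 0.0136 and 7.88e-04).

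Of the 10 genes, 9 passed the filter on low counts. In Stat5b-/- against wt, 5 of them rose (Cdkn2c, Cdkn2d, Cdkn1a, Rb1 and Rbl2) and 2 fell (Cdkn2a and Cdkn2b). Of all genes tested, 24.2% rose and 22% fell in that comparison. In Stat5a-/- against wt, 3 rose (Cdkn2d, Cdkn1a and Rb1) and 1 fell (Cdkn2a), against a background of 19.8% and 16.3% of all genes. In Stat5b-/- against Stat5a-/-, 4 rose (Cdkn2c, Cdkn2d, Cdkn1b and Rb1) and 2 fell (Cdkn2a and Cdkn2b), against 16.4% and 17.5%. Both comparisons with wt use the same 3 wt libraries, so their values are set side by side and not counted as separate evidence. With the added limit of a fold change above 2, only Cdkn2d remained among the rises in Stat5b-/- against wt and in Stat5a-/- against wt, where 10.6% and 7.75% of all genes rose past both limits, and Cdkn2c alone in Stat5b-/- against Stat5a-/-, where 4.81% did. Both falls in Stat5b-/- against wt, that of Cdkn2a in Stat5a-/- against wt and that of Cdkn2b in Stat5b-/- against Stat5a-/- also passed it, beside 8.44%, 6.49% and 6.6% of all genes. Since the T-cell markers moved with the lines, the tests were also run with their level as a covariate. This level did not overlap between the lines, so the fit can hardly separate it from genotype. Standard errors grew with it, for Cdkn2a in Stat5b-/- against wt from 0.12 to 0.27. A lost call therefore need not mean a smaller difference, as for Cdkn1a in that comparison (log2 fold change 0.41 without and 0.81 with the covariate). That fit called 2 rises and 1 fall among the genes in Stat5b-/- against wt, 2 rises and 2 falls in Stat5a-/- against wt, and 1 rise and 0 falls in Stat5b-/- against Stat5a-/-, while the calls over all genes in Stat5b-/- against wt went from 6397 to 1461, those in Stat5a-/- against wt from 4993 to 3269 and those in Stat5b-/- against Stat5a-/- from 4698 to 2128. The part of other cells in the differences was not tested beyond this fit, and in bulk RNA fewer cells of a type cannot be told apart from less RNA per cell.

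**Figure D1:**
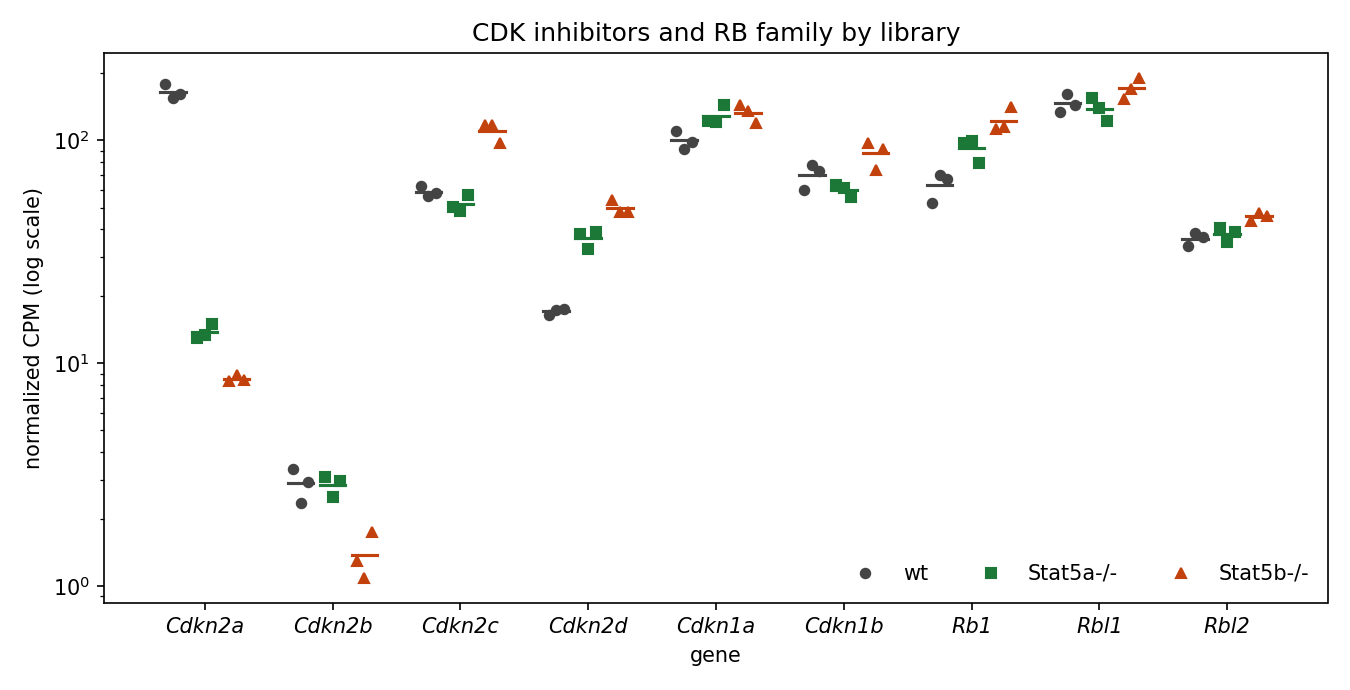
Normalized CPM (log axis) of the 9 tested genes in each of the 9 libraries, with 1 point per library and a bar at the mean of each line. The wt points of Cdkn2a lie far above those of both knockout lines, the Stat5b-/- points of Cdkn2c and Cdkn2d lie above every wt point, and those of Cdkn2b lie below.

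Cdkn2a (ENSMUSG00000044303.6, minus strand, chr4:89274471-89294653 of GRCm38) fell most. It had 2830, 3077 and 2784 reads in the wt libraries, 186, 164 and 167 in Stat5a-/- and 121, 130 and 110 in Stat5b-/-. After scaling these were 180, 155 and 161 normalized CPM in wt, 13, 13.3 and 15.1 in Stat5a-/-, and 8.30, 8.88 and 8.38 in Stat5b-/- libraries. Every wt library was above every Stat5a-/- library, and every Stat5a-/- library was above every Stat5b-/- library. Expression was 12-fold lower than in wt in Stat5a-/- (log2 fold change -3.58, standard error 0.11, adjusted p = 8.50e-11) and 19.4-fold lower in Stat5b-/- (-4.28, standard error 0.12, adjusted p = 3.68e-11). Between the knockout lines it was 1.62-fold lower in Stat5b-/- (log2 fold change -0.69, standard error 0.12, adjusted p = 5.65e-04), and this difference missed the threshold with the T-cell covariate (-0.48, adjusted p = 0.0540). Both falls against wt held with it, at -3.32 (adjusted p = 2.96e-07) and -3.80 (adjusted p = 1.70e-05). Between 110 and 186 reads remained in each knockout library.

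The deposited value is 1 count per gene, so p16INK4a and p19ARF transcripts cannot be told apart. In the M13 annotation the first exon of p19ARF lies at chr4:89294334-89294653, the first exon of p16INK4a at chr4:89281986-89282192, and both join a common exon at chr4:89276645-89276985. The sequences upstream of these starts, and that of neighbouring Cdkn2b, are shown because these are the genes of the set that fell. They are from RefSeq (GRCm38.p6, minus strand, written 5′ to 3′), end at the base before the annotated exon, and have in capitals the only E2F motif found. The windows are chr4:89294654-89294869 for p19ARF, chr4:89282193-89282442 for p16INK4a and chr4:89311033-89311282 for Cdkn2b.
Cdkn2a, upstream of the p19ARF exon: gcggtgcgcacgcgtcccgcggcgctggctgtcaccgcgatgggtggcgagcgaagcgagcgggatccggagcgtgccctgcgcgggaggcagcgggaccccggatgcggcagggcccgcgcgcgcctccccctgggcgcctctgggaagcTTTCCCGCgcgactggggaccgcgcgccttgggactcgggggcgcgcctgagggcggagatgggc
Cdkn2a, upstream of the p16INK4a exon: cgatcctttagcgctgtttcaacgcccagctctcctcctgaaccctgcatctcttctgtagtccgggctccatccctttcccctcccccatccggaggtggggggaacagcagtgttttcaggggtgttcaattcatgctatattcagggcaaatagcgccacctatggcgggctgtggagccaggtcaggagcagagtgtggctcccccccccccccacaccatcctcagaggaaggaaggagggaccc
Cdkn2b: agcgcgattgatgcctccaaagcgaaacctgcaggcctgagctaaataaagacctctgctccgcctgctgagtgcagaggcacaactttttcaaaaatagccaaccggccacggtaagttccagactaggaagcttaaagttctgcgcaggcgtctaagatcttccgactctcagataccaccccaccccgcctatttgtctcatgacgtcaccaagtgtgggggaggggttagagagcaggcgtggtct
The windows differ in base composition. The full 250 bases before the RefSeq start of the p19ARF transcript held 78.4% G or C and 40 CpG sites, against 60% and 7 at the p16INK4a start and 53.6% and 12 at Cdkn2b. Both strands were searched for E2F motifs (TTTCCCGC, TTTGGCGC, TTTCGCGC or TTTGCCGC) and for the STAT motif TTCNNNGAA. Among 11 windows found for 8 of the genes (not Rb1 and Cdkn1c) in the RefSeq promoter table used here, an E2F motif stood in 2, that of p19ARF, 99 bases before its RefSeq start, and that of Rbl1, 18 bases before its start, and the STAT motif stood in 0. The RefSeq start of p19ARF lies 34 bases inside the annotated exon, past the end of the printed sequence. Of all 32817 mouse promoters of this length, 1.86% held such an E2F motif and 7.01% the STAT motif. A match is a run of letters and does not show that a factor binds there.

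Cdkn2b (ENSMUSG00000073802.4, chr4:89306289-89311032), which encodes the TGF-beta-responsive INK4 protein p15, lies beside Cdkn2a but followed another pattern. It was weakly expressed, with 53, 47 and 51 reads in wt, 44, 31 and 33 in Stat5a-/- and 19, 16 and 23 in Stat5b-/-. These were 3.36, 2.37 and 2.95 normalized CPM in wt, 3.08, 2.52 and 2.98 in Stat5a-/- and 1.30, 1.09 and 1.75 in Stat5b-/-. The Stat5a-/- values lay within the wt range, whereas all Stat5b-/- values lay under both. Expression in Stat5b-/- was 2.09-fold lower than in wt (log2 fold change -1.06, standard error 0.24, adjusted p = 0.00320) and 2.08-fold lower than in Stat5a-/- (-1.05, standard error 0.25, adjusted p = 0.00655). Between Stat5a-/- and wt the log2 fold change was -0.0079, with a 95% interval from -0.49 to 0.48 (adjusted p = 0.984). With the T-cell covariate the difference between Stat5b-/- and wt was not called (-0.75, adjusted p = 0.545), nor was that between the knockout lines (-0.92, adjusted p = 0.147).

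The region around both genes was examined by counts. Within 1 Mb of the Cdkn2a midpoint the annotation holds 68 genes, of which 22 had at least 1 read over the 9 libraries and 7 passed the filter. Mtap, the methylthioadenosine phosphorylase gene that is often deleted together with Cdkn2a in human tumors, fell from 166 ± 16.4 normalized CPM (SD, n = 3) in wt to 128 ± 10.8 in Stat5a-/- and 90.4 ± 6.12 in Stat5b-/-. Against wt these falls were -0.37 for Stat5a-/- on the log2 scale (adjusted p = 0.0151) and -0.88 for Stat5b-/- (adjusted p = 2.16e-05). Klhl9, an adaptor of a cullin ubiquitin ligase, was not called in any comparison, with log2 fold changes against wt of -0.26 in Stat5a-/- and 0.018 in Stat5b-/-. The transcription factor gene Dmrta1 rose in Stat5b-/- against wt (1.44, adjusted p = 2.57e-04) and was not called in Stat5a-/- (0.48, adjusted p = 0.176). Gm12606 (ENSMUSG00000087659.7, chr4:89235699-89273403), a neighbour on the strand of Cdkn2a whose exons do not overlap it, had most of its reads in 1 line, with 119, 114 and 66 in Stat5a-/- libraries against 0, 1 and 2 in wt and 0, 1 and 1 in Stat5b-/-. That difference was called against wt (adjusted p = 4.94e-08) and against Stat5b-/- (adjusted p = 1.21e-07). No fold is given since the other lines were near 0. Of the 18 genes in this window whose symbol starts with Ifn, the pseudogene Ifna-ps1 among them, 16 had no read. The highest of these had 3 reads over all libraries, and interferon-like genes under other symbols were not counted.

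**Figure D2:**
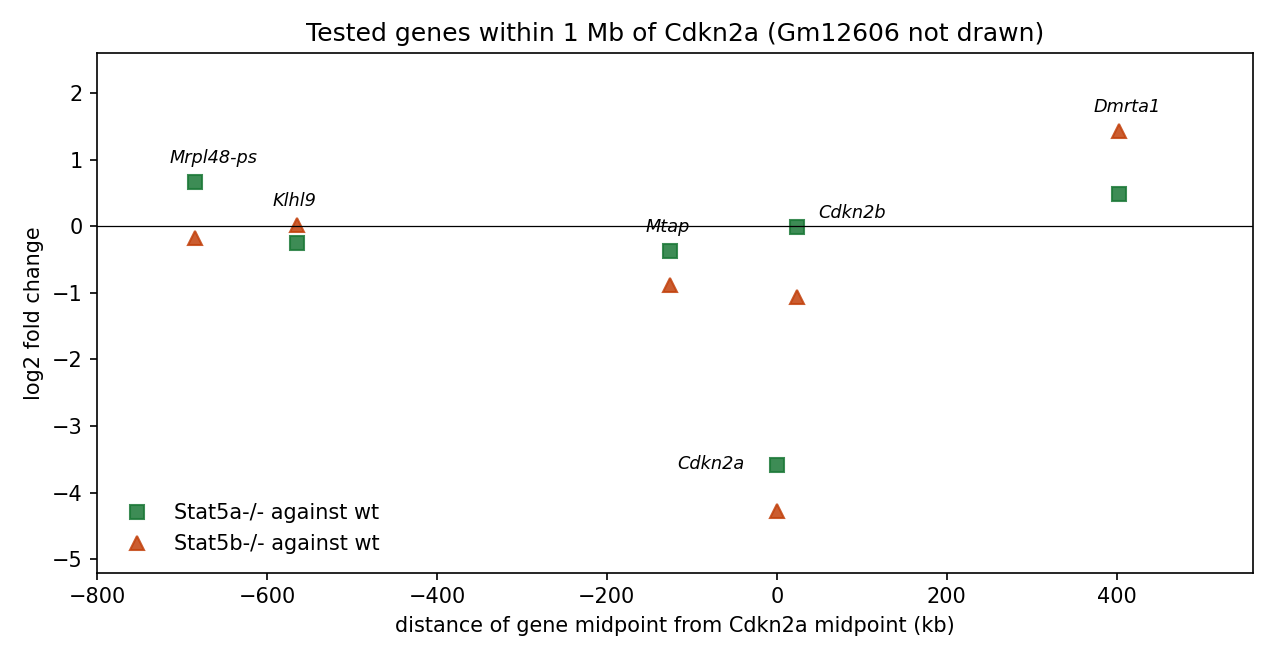
Log2 fold changes of tested genes within 1 Mb of Cdkn2a, drawn at the distance of each gene's midpoint from that of Cdkn2a (kb), with squares for Stat5a-/- against wt and triangles for Stat5b-/- against wt. Gm12606, with 3 reads over the wt libraries, is left out. Cdkn2a stands furthest below 0 in both comparisons with wt, Mtap lies between it and 0, and Dmrta1 lies above 0. The pseudogene Mrpl48-ps was not called.

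Cdkn2d rose in both knockout lines and Cdkn2c in the Stat5b-/- line. Cdkn2d (chr9:21288410-21291407), which encodes p19INK4d, had 16.4, 17.3 and 17.6 normalized CPM in wt, 38.0, 32.7 and 39.0 in Stat5a-/- and 54.0, 47.8 and 47.6 in Stat5b-/-. The lines did not overlap and stood in this order. Expression was 2.13-fold higher than in wt in Stat5a-/- (log2 fold change 1.09, standard error 0.11, adjusted p = 4.81e-06) and 2.91-fold higher in Stat5b-/- (1.54, standard error 0.11, adjusted p = 1.55e-07). Stat5b-/- was 1.36-fold above Stat5a-/- (log2 fold change 0.45, standard error 0.11, adjusted p = 0.00668), which was not called with the T-cell covariate (0.37, adjusted p = 0.166).

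Cdkn2c (chr4:109660876-109667189), which encodes p18INK4c, an inhibitor known for its role in the maturation of B-lineage cells, had 62.2, 56.2 and 58.0 normalized CPM in wt, 50.1, 48.2 and 56.9 in Stat5a-/- and 117, 118 and 97.1 in Stat5b-/-. The wt and Stat5a-/- ranges overlapped and every Stat5b-/- library lay above both. In Stat5b-/- the gene was 1.88-fold higher than in wt (log2 fold change 0.91, standard error 0.11, adjusted p = 1.80e-05) and 2.14-fold higher than in Stat5a-/- (1.10, standard error 0.11, adjusted p = 6.88e-06). Both calls held with the T-cell covariate, with log2 fold changes of 1.31 (adjusted p = 0.0136) and 1.28 (adjusted p = 2.00e-04). In Stat5a-/- against wt the log2 fold change was -0.19 (95% interval from -0.42 to 0.053, adjusted p = 0.216), and with an offset for the GC content of genes it was -0.42 and called (adjusted p = 3.86e-04).

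Set on a per-length scale, these shifts changed the make-up of INK4 transcripts. The sum of the 4 genes was 176 ± 12 normalized RPKM (SD, n = 3) in wt libraries, 56.3 ± 4.5 in Stat5a-/- libraries and 81.1 ± 5.65 in Stat5b-/- libraries. Cdkn2a was 80.2% ± 0.701 of this sum in wt, 20.9% ± 1.08 in Stat5a-/- and 9.0% ± 0.672 in Stat5b-/-. Its share lay between 79.7% and 81.0% in wt libraries, 19.8% and 21.9% in Stat5a-/- and 8.25% and 9.56% in Stat5b-/-, so the lines were separate. Cdkn2c made up 12.5% ± 0.184 in wt, 34.2% ± 0.825 in Stat5a-/- and 50.7% ± 2.39 in Stat5b-/-, and Cdkn2d 6.21% ± 0.606, 41.2% ± 1.58 and 39.1% ± 2.01. The Cdkn2a count includes p19ARF transcripts, which encode no INK4 protein.

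**Figure D3:**
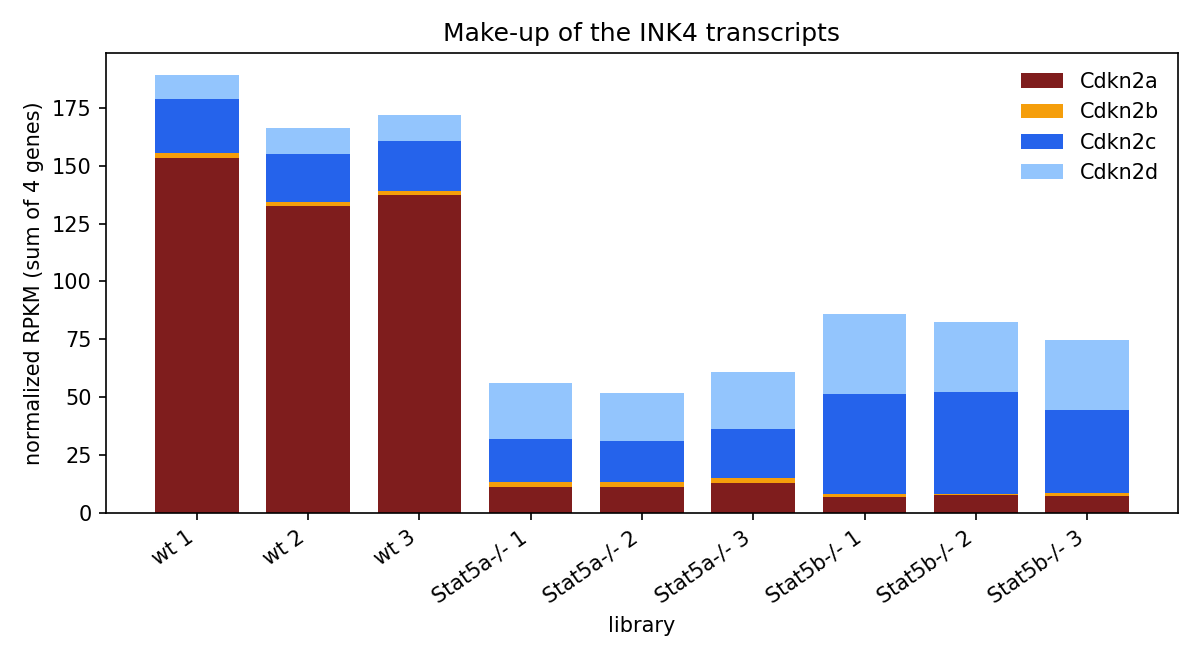
Stacked bars of the normalized RPKM of Cdkn2a, Cdkn2b, Cdkn2c and Cdkn2d in each of the 9 libraries. The wt bars are the highest and mostly Cdkn2a, while Cdkn2c and Cdkn2d fill most of the bars of both knockout lines.

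The tested CIP/KIP genes differed between lines by at most 1.46-fold. Cdkn1a (chr17:29090979-29100722), the p53 target that encodes p21, had 110, 91.8 and 98.0 normalized CPM in wt, 122, 121 and 144 in Stat5a-/- and 144, 135 and 119 in Stat5b-/-. Each knockout library lay above each wt library and the knockout lines overlapped. The rise was 1.29-fold in Stat5a-/- (log2 fold change 0.37, standard error 0.11, adjusted p = 0.0212) and 1.33-fold in Stat5b-/- (0.41, standard error 0.11, adjusted p = 0.00945). The Stat5a-/- call was lost without wt replicate 2 (0.31, adjusted p = 0.0938), wt replicate 3 (0.35, adjusted p = 0.0805) or Stat5a-/- replicate 3 (0.25, adjusted p = 0.127), and the Stat5b-/- call without Stat5b-/- replicate 1 (0.32, adjusted p = 0.0547) or with the T-cell covariate (0.81, adjusted p = 0.118). A GC offset joined with the replicate block also ended the Stat5a-/- call (0.19, adjusted p = 0.0768).

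Cdkn1b (chr6:134920401-134925513), which encodes p27, had 60.2, 77.3 and 72.8 normalized CPM in wt, 63.3, 61.4 and 55.5 in Stat5a-/- and 97.2, 73.9 and 91.3 in Stat5b-/-. The wt range overlapped that of both knockout lines, and the knockout lines did not overlap each other. Neither line was called against wt, with log2 fold changes of -0.22 in Stat5a-/- (95% interval from -0.50 to 0.053, adjusted p = 0.199) and 0.32 in Stat5b-/- (95% interval from 0.045 to 0.59, adjusted p = 0.0553). The latter was called without wt replicate 2 (0.39, adjusted p = 0.0432), without Stat5b-/- replicate 2 (0.43, adjusted p = 0.0199) and with the GC offset (0.31, adjusted p = 0.0169), while the T-cell covariate turned its sign without a call (-0.63, adjusted p = 0.113). The former was called with that covariate (-0.74, adjusted p = 0.00369). Stat5b-/- was 1.46-fold above Stat5a-/- (log2 fold change 0.54, standard error 0.13, adjusted p = 0.00576), which was lost with the T-cell covariate (0.11, adjusted p = 0.612). Cdkn1c (chr7:143458339-143461050), the imprinted gene of p57, had 2, 1 and 4 reads in wt, 0, 1 and 0 in Stat5a-/- and 0, 1 and 0 in Stat5b-/- and was not tested. Of its exon bases 30.7% are shared with Gm44732 on the opposite strand, and the counting did not use strand.

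**Figure D4:**
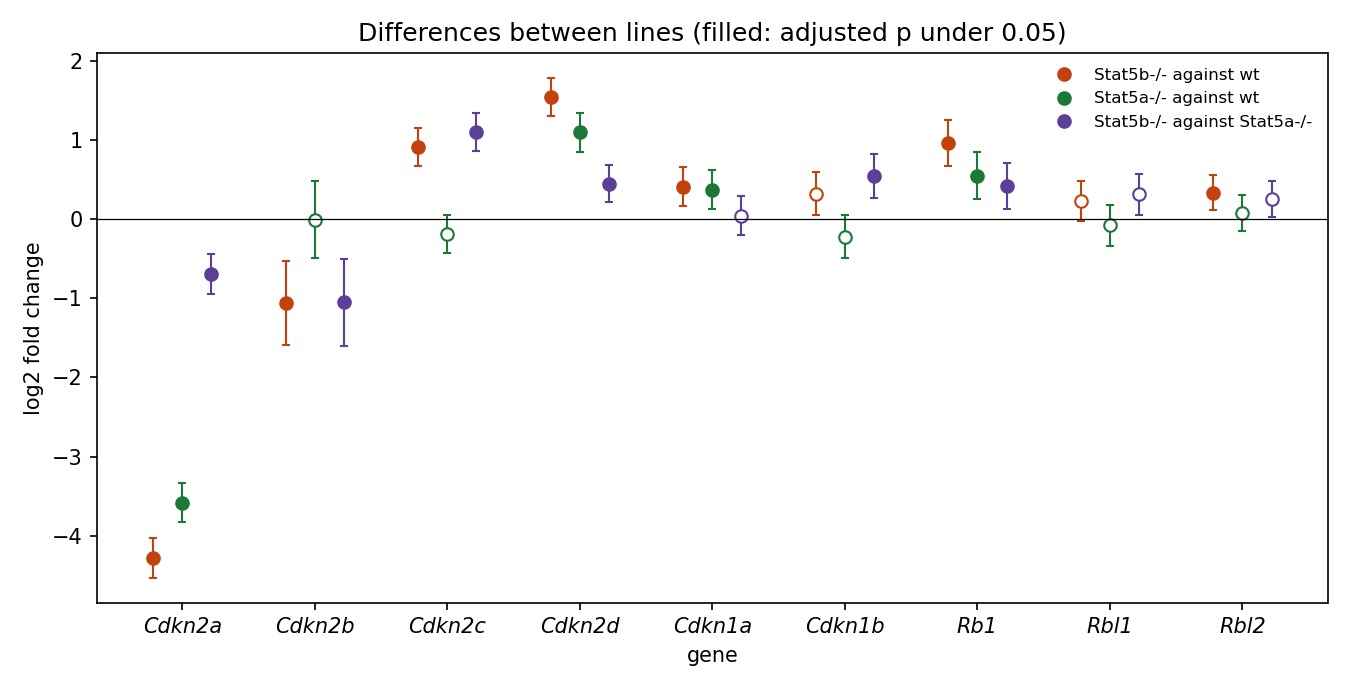
Log2 fold changes of the 9 tested genes in the 3 comparisons, with 95% intervals and filled points for genes called by edgeR's quasi-likelihood test. Cdkn2a lies at -3.58 and -4.28 against wt, and the intervals of Cdkn2d and Rb1 lie above 0 in all 3 comparisons.

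Among the RB family, the pocket proteins that bind E2F factors, Rb1 rose in both knockout lines. Rb1 (chr14:73183673-73325822) had 52.6, 69.7 and 66.9 normalized CPM in wt, 97.2, 99.7 and 79.6 in Stat5a-/- and 113, 115 and 141 in Stat5b-/-. The 3 lines did not overlap. It was 1.46-fold above wt in Stat5a-/- (log2 fold change 0.55, standard error 0.14, adjusted p = 0.00657) and 1.95-fold above wt in Stat5b-/- (0.96, standard error 0.14, adjusted p = 7.97e-05). The difference between the knockout lines was called (log2 fold change 0.41, adjusted p = 0.0318), but not without Stat5a-/- replicate 3 (0.33, adjusted p = 0.0903) or Stat5b-/- replicate 3 (0.30, adjusted p = 0.110), nor with the T-cell covariate (0.098, adjusted p = 0.784). With the T-cell covariate Rb1 was called against wt neither in Stat5b-/- (0.25, adjusted p = 0.681) nor in Stat5a-/- (0.15, adjusted p = 0.642). Of its exon bases 14.9% are shared with Rcbtb2 and Lpar6 on the opposite strand, where a count without strand cannot tell the genes apart.

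Rbl2 (chr8:91070057-91123844), which encodes p130, the pocket protein of resting cells, had 33.5, 38.3 and 36.9 normalized CPM in wt, 40.6, 35.2 and 39.0 in Stat5a-/- and 43.5, 47.5 and 45.9 in Stat5b-/-. The wt and Stat5a-/- ranges overlapped and the Stat5b-/- libraries were above both. The rise in Stat5b-/- was 1.26-fold (log2 fold change 0.33, standard error 0.10, adjusted p = 0.0183) and was lost without wt replicate 1 (0.28, adjusted p = 0.0736), wt replicate 3 (0.34, adjusted p = 0.0542) or Stat5b-/- replicate 2 (0.30, adjusted p = 0.0636). It was also lost with no filter on low counts (0.31, adjusted p = 0.0803) and with the T-cell covariate (0.30, adjusted p = 0.557). Of its exon bases 21% are shared with Aktip and Gm45464 on the opposite strand. Rbl1 (chr2:157145893-157204534), which encodes p107, the pocket protein of cycling cells, had 134, 161 and 145 normalized CPM in wt, 155, 139 and 122 in Stat5a-/- and 154, 171 and 191 in Stat5b-/-. The 3 ranges overlapped one another, and no comparison was called. Between the knockout lines the log2 fold change of 0.31 (adjusted p = 0.0617) was called without Stat5a-/- replicate 1 (0.40, adjusted p = 0.0407), without Stat5b-/- replicate 1 (0.38, adjusted p = 0.0362) and with the GC offset (0.20, adjusted p = 0.0330). Against wt, its log2 fold change was -0.082 for Stat5a-/- (95% interval from -0.34 to 0.18, adjusted p = 0.633) and 0.23 for Stat5b-/- (95% interval from -0.030 to 0.49, adjusted p = 0.136), the latter being called with the GC offset (0.21, adjusted p = 0.0206) and turned in sign, without a call, by the T-cell covariate (-0.11, adjusted p = 0.864).

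Compared per length, the order of the 10 genes differed between lines. In wt, Cdkn2a led with 141 ± 10.8 normalized RPKM (SD, n = 3), followed by Cdkn1a with 45.0, Rbl1 with 24.5, Cdkn2c with 21.9, Cdkn1b with 15.4, Cdkn2d with 10.9, Rb1 with 10.5, Rbl2 with 4.8, Cdkn2b with 2.08 and Cdkn1c with 0.0668. Libraries of neighbours overlapped for Rbl1 and Cdkn2c and for Cdkn2d and Rb1. In Stat5a-/- and Stat5b-/- Cdkn1a was first with 58.1 and 59.7 normalized RPKM, and Cdkn2a was seventh of the order with 11.8 and 7.27, where in Stat5a-/- it overlapped Cdkn1b with 13.2. Cdkn2d stood behind Cdkn1a in Stat5a-/- with 23.2, where it overlapped Rbl1 with 23.1, and Rbl1 overlapped Cdkn2c with 19.3. In Stat5b-/- Cdkn2c was next with 41.2, apart from Cdkn2d with 31.6, which overlapped Rbl1 with 28.7.

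The partners of the inhibitors were followed in lists chosen by function. Beside each list's counts stand the shares of all genes called, 24.2% higher and 22% lower in Stat5b-/- against wt and 19.8% and 16.3% in Stat5a-/- against wt. Of 10 tested genes of G1 cyclins, CDKs and Cdc25a, a phosphatase that activates CDKs, 1 rose and 5 fell in Stat5b-/- against wt, and 1 rose and 6 fell in Stat5a-/- against wt, with median log2 fold changes of -0.19 and -0.38 beside 0.023 and 0.0099 over all genes. The falls include that of Cdc25a (-0.47, adjusted p = 7.82e-04, in Stat5b-/-), named here after its values were seen. Ccnd1, the gene of cyclin D1, fell from 77.0 ± 10.5 normalized CPM (SD, n = 3) in wt to 15.3 ± 3.67 in Stat5a-/- and 8.31 ± 1.59 in Stat5b-/- (log2 fold changes -2.34, adjusted p = 2.86e-07, and -3.21, adjusted p = 1.92e-08). Ccnd2 fell in Stat5b-/- (-0.79, adjusted p = 2.03e-05) and was not called in Stat5a-/- (-0.23, adjusted p = 0.0793), while Ccnd3 rose in Stat5a-/- (0.94, adjusted p = 0.00133) and Stat5b-/- (0.69, adjusted p = 0.00789). The INK4 targets Cdk4 and Cdk6 both fell. Cdk4 changed by -0.42 in Stat5a-/- (adjusted p = 0.00290) and -0.28 in Stat5b-/- (adjusted p = 0.0242), and Cdk6 by -0.83 (adjusted p = 1.38e-05) and -0.37 (adjusted p = 0.00585).

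Of 10 E2F and DP genes, 3 rose and 4 fell in Stat5b-/- against wt, and 2 rose and 4 fell in Stat5a-/- against wt, with medians of -0.16 and -0.17. Over all genes 24.2% rose and 22% fell in the first comparison and 19.8% and 16.3% in the second. E2f2, an activator E2F, rose to 236 and 293 normalized CPM in Stat5a-/- and Stat5b-/- from 109 in wt (log2 fold changes 1.11, adjusted p = 1.38e-04, and 1.42, adjusted p = 1.33e-05). E2f6, a repressor E2F that does not bind pocket proteins, fell in both (-1.41, adjusted p = 3.28e-07, and -0.80, adjusted p = 4.30e-05), and E2f1 was not called (adjusted p = 0.975 in Stat5a-/- and 0.608 in Stat5b-/-). Tfdp2, which encodes an E2F partner, fell in Stat5a-/- (-0.87, adjusted p = 1.41e-05). Of 22 E2F target genes for DNA replication and division, 4 rose and 5 fell in Stat5b-/- against wt and 3 rose and 7 fell in Stat5a-/- against wt, with medians of -0.11 and -0.16, beside 24.2% and 22% of all genes in the first comparison and 19.8% and 16.3% in the second. Thymidylate synthase (Tyms) rose to 64.5 and 100.0 normalized CPM from 44.3 (log2 fold changes 0.54, adjusted p = 0.00280, and 1.17, adjusted p = 3.76e-06), whereas the replication licensing genes Cdc6 (-0.68, adjusted p = 8.12e-05, and -0.73, adjusted p = 3.32e-05) and Orc1 (-0.68, adjusted p = 2.23e-04, and -0.92, adjusted p = 1.31e-05) fell. Of 6 genes of the MuvB complex and B-MYB, which act with p107 and p130 at cell-cycle promoters, only Lin9 in Stat5a-/- against wt was called (-0.42, adjusted p = 0.0441).

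Of the 5 genes of the ARF-p53 axis, 0 rose and 1 fell in Stat5b-/- against wt, and 0 rose and 2 fell in Stat5a-/- against wt, with medians of -0.10 and -0.24. Over all genes 22% fell in the first comparison and 16.3% in the second, so 1 of 5 is near the background. Trp53 was not called, with log2 fold changes of -0.054 in Stat5a-/- (adjusted p = 0.759) and -0.18 in Stat5b-/- (adjusted p = 0.228). Npm1, which encodes the nucleolar protein that holds p19ARF, fell in both lines (-0.49, adjusted p = 0.0281, and -1.01, adjusted p = 1.89e-04). Mdm2 fell in Stat5a-/- (-0.41, adjusted p = 0.0273) and was not called in Stat5b-/- (0.036, adjusted p = 0.844). Of 15 tested regulators of the INK4-ARF locus, 5 rose and 3 fell in Stat5b-/- and 3 rose and 6 fell in Stat5a-/- against wt, with medians of -0.096 and -0.31, beside 24.2% and 22% of all genes in Stat5b-/- and 19.8% and 16.3% in Stat5a-/-. Ets1, an activator of p16INK4a, rose (0.29, adjusted p = 0.0368, in Stat5a-/- and 0.94, adjusted p = 5.45e-06, in Stat5b-/-), and Id1, whose product opposes ETS factors there, fell (-0.97, adjusted p = 0.0102, and -1.81, adjusted p = 1.56e-04). Ets2 fell from 46.4 to 4.71 normalized CPM in Stat5a-/- (-3.29, adjusted p = 1.00e-09) and stood at 47.2 in Stat5b-/- (0.025, adjusted p = 0.878). Ring1, a Polycomb subunit, rose in both lines (0.99, adjusted p = 1.22e-05, and 0.60, adjusted p = 7.63e-04), and Bmi1, the Polycomb repressor of the locus, singled out here after its values were seen, fell in both lines (-0.77, adjusted p = 4.17e-05, and -0.76, adjusted p = 3.91e-05).

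Of 11 genes that serve the degradation of CIP/KIP proteins, 1 rose and 4 fell in Stat5b-/- and 0 rose and 4 fell in Stat5a-/- against wt, with medians of -0.26 and -0.29, while 24.2% of all genes rose and 22% fell in the first comparison and 19.8% and 16.3% in the second. Skp2, the F-box protein that targets p27, fell from 78.0 normalized CPM in wt to 32.3 in Stat5a-/- and 40.0 in Stat5b-/- (log2 fold changes -1.27, adjusted p = 1.91e-06, and -0.96, adjusted p = 1.87e-05). Its cofactor Cks1b fell in Stat5b-/- (-0.58, adjusted p = 0.00942), and Dtl, the p21 targeting subunit of another ligase, fell in both (-0.49, adjusted p = 0.00139, and -0.51, adjusted p = 8.29e-04). Of 5 transcription factors that act on the CIP/KIP genes, 0 rose and 1 fell in Stat5b-/- and 0 rose and 2 fell in Stat5a-/-, with medians of 0.19 and 0.042. Myc, a repressor of Cdkn1a and Cdkn2b, had 1124 ± 57.5 normalized CPM in wt, 767 ± 78.5 in Stat5a-/- and 294 ± 42.4 in Stat5b-/- and was lower in Stat5b-/- than in Stat5a-/- (-1.38, adjusted p = 2.26e-06). Foxo1, an activator of Cdkn1b, fell in Stat5a-/- (-0.48, adjusted p = 8.50e-04) and exceeded its Stat5a-/- level in Stat5b-/- (0.60, adjusted p = 2.07e-04).

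**Figure D5:**
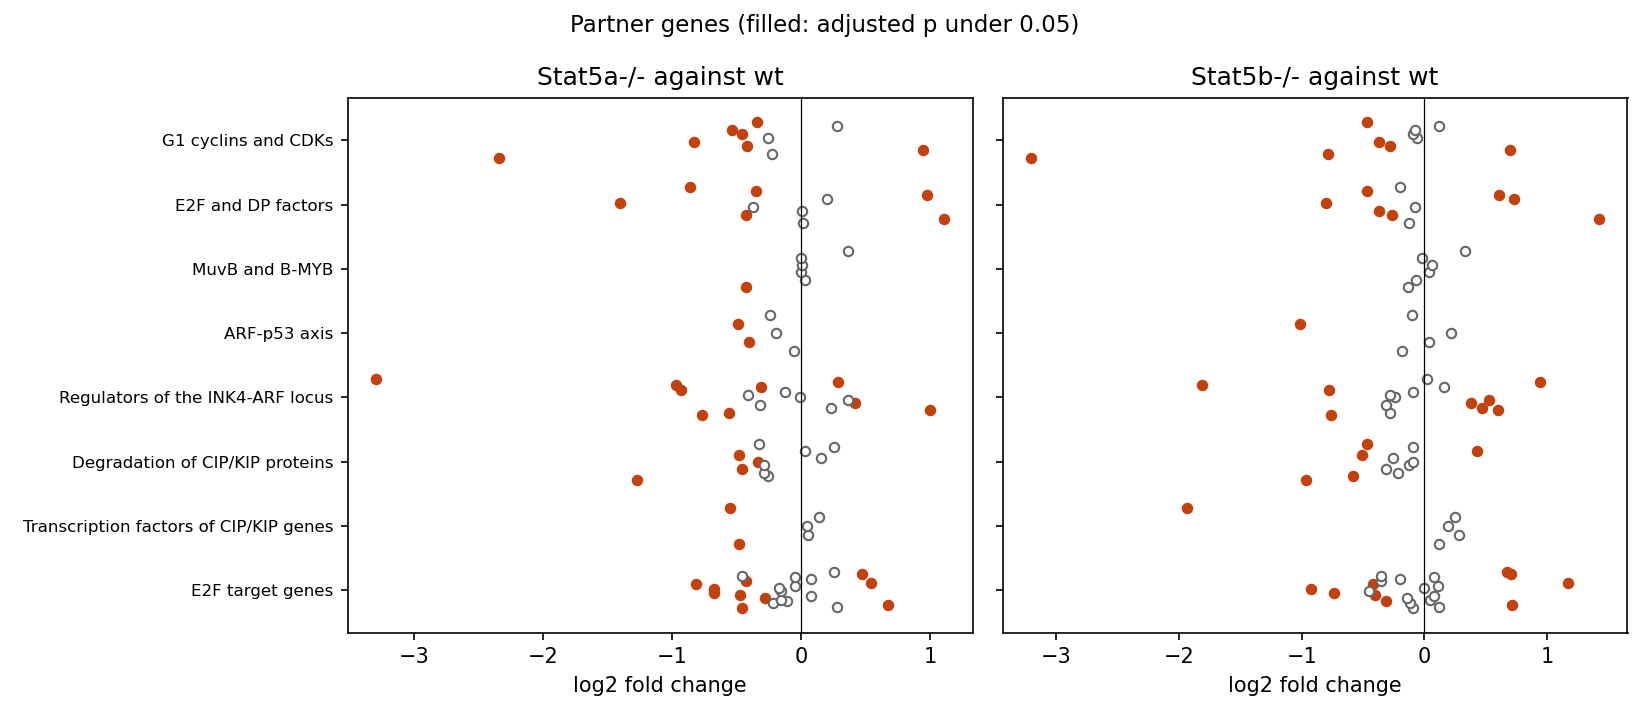
Log2 fold changes against wt of each tested gene in the partner lists, with 1 row per list, 1 panel per knockout line and a filled point for each called gene, shifted up or down within its row so that points do not hide each other. Ccnd1 in Stat5b-/- (-3.21) and Ets2 in Stat5a-/- (-3.29) lie furthest from 0, and most points lie within 1 of it. The top row also holds Cdc25a.

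The genes whose log2 normalized CPM ran most nearly like that of the 3 most variable inhibitors are given as a description over the same 9 libraries, which share the line structure. For Cdkn2a these were Lgmn (Pearson r = 0.99912), Spire1 (0.99763) and Calr3 (0.99736), and 339 genes had an r above 0.95. Cdkn2d ran most like Adgre5 (0.99635), Usp43 (0.99594) and Etv3 (0.99474), with 337 genes above 0.95, and Cdkn2c most like Pimreg (0.99695), Scmh1 (0.99531) and Patz1 (0.99479), with 92.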

How the data were processed

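Messenger RNA of wt, Stat5a-/- and Stat5b-/- BCR/ABLp185+ lines was sequenced as single-end reads. The authors trimmed reads with Trimmomatic, mapped them with STAR to GRCm38 and deposited raw counts per gene, made with featureCounts 1.5.1 on GENCODE M13 exons without the strand option. Reads that map to several places are dropped by default, so genes with close copies are uncertain. Samples were grouped by title and genotype. The description of the knockout samples names wt cell lines, in conflict with both. Symbols came from GENCODE M21 (50376 of 50686 genes). Human samples were not analysed here.

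Counts were tested with edgeR 4.0.16 in R 4.3.3 (TMM, filterByExpr, glmQLFit and glmQLFTest with genotype as the only term, Benjamini-Hochberg over 13852 genes). Standard errors are the size of a log2 fold change divided by the root of its F value, and 95% intervals use the degrees of freedom of the test. Alternatives were DESeq2 1.42.0, RLE scaling, no filter or a mean of at least 10 counts, fits of 2 genotypes, a replicate block, each library left out, and a fold limit of 2. A loess GC offset (span 0.5), that offset with the block, and the T-cell marker level as a covariate were added after the data were seen. Steps were tested on simulated counts. The genes and lists were chosen with earlier results of these data known. Named were all 10 genes and Stat5a and Stat5b, 10 preset partners, up to 2 called genes with the largest change per list and comparison, the 3 genes most like each of the 3 most variable members, and called neighbours of Cdkn2a. Tk1, Top2a, Ddb1 and Rnf123 meet this rule but are not described above. Klhl9, Mrpl48-ps, Bmi1 and Cdc25a were named outside this rule, after their values were seen. The libraries carry no stated molecular identifiers, so reads may repeat a molecule.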

Additional observations from a re-analysis of the deposited data

Results flagged for a closer look

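The log2 fold changes of Cdkn2c and Cdkn1b against wt had opposite signs in the 2 knockout lines, and the direct comparison of the lines was called for both. The log2 fold change of Stat5b-/- against Stat5a-/- was 1.10 for Cdkn2c (adjusted p = 6.88e-06, edgeR's quasi-likelihood test) and 0.54 for Cdkn1b (adjusted p = 0.00576). Of the 4 changes against wt behind them, that of Cdkn2c in Stat5b-/- (0.91) was called, and those of Cdkn2c in Stat5a-/- (-0.19) and of Cdkn1b in Stat5a-/- (-0.22) and Stat5b-/- (0.32) were not. Both comparisons with wt share the wt libraries. The Cdkn1b difference was not called with the T-cell covariate (0.11, adjusted p = 0.612), whereas that of Cdkn2c was (1.28, adjusted p = 2.00e-04). With this covariate the signs against wt were no longer opposite, at -0.74 in Stat5a-/- and -0.63 in Stat5b-/- for Cdkn1b and at 0.036 and 1.31 for Cdkn2c.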

How the results depend on the processing

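The numbers of members called moved with the T-cell marker covariate and with the fold limit. The covariate gave 2 rises and 1 fall in Stat5b-/- against wt, 2 falls in Stat5a-/- against wt, and 1 rise and 0 falls in Stat5b-/- against Stat5a-/- (main counts 5 and 2, 1, and 4 and 2), and it lowered the calls over all genes from 6397 to 1461 in the first comparison. The GC offset, alone or with the replicate block, gave 2 falls in Stat5a-/- against wt. A fold limit of 2 left 1 rise in each of the 3 comparisons and 1 fall in Stat5b-/- against Stat5a-/-. With single libraries left out, rises were 4 to 6 in Stat5b-/- against wt, 2 to 3 in Stat5a-/- against wt and 3 to 5 in Stat5b-/- against Stat5a-/-, and falls stayed at 2, 1 and 2. The causes were not tested.

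Of 486 recomputed log2 fold changes of single members, 441 kept direction and call, 22 lost the call, 11 gained it and 12 changed sign, all 12 in comparisons without a call. With the T-cell covariate these were Cdkn1b (-0.63) and Rbl1 (-0.11) in Stat5b-/- against wt and Cdkn2b (0.17) and Cdkn2c (0.036) in Stat5a-/- against wt. With the GC offset Rbl1 in Stat5a-/- against wt stood at 0.0088, and at 0.0085 with the block added. With libraries left out, Cdkn2b in Stat5a-/- against wt ran from -0.14 to 0.11 and Cdkn1a in Stat5b-/- against Stat5a-/- from -0.026 to 0.14.

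Same-numbered libraries did not deviate together (mean correlation -0.163 over 9 pairs), so no pairing by number was seen. The value over 18 pairs with different numbers (0.0790) is no separate evidence, because deviations were taken from each line's own mean. The replicate block kept 5 rises and 2 falls in Stat5b-/- against wt, 3 and 1 in Stat5a-/- against wt, and 3 and 2 in Stat5b-/- against Stat5a-/-, where Rb1 lost its call (0.41, adjusted p = 0.0582). When a GC offset joined the block, Rbl1 was not called in Stat5b-/- against wt (0.21, adjusted p = 0.0513). Libraries of 1 line differed with GC content (correlations across genes from -0.665 to 0.707). Depth limits Cdkn2b, with 16 to 53 reads per library, and Cdkn1c, with 0 to 4.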
